A study of Mus musculus with 12 samples.

Results

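The 3580 regions described here were CpG-dense stretches of the autosomes in which cytosine modification was low in control retinas and higher in retinas lacking the TET enzymes. They were taken from the authors' list of regions that differ between the genotypes in whole-genome bisulfite sequencing (WGBS), which reads 5-methylcytosine (5mC) and 5-hydroxymethylcytosine (5hmC) together. The regions were chosen by their density and their measured WGBS levels: the rule kept those with at least 5 CpGs per 100 bp, a Cre- mean level below 50% and a higher mean level in Tet tcKO. It selected 3580 of 190763 autosomal regions, of 193836 regions in all. Because the rule used the WGBS levels and the CpG density, both are given here as a description, with no test.

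The samples were whole retinas of C57 BL/6J mice at postnatal day 21 (P21). Controls were Cre- animals, labelled WT and carrying no Cre. Tet tcKO animals were conditional triple mutants for Tet1, Tet2 and Tet3, in which the Chx10-Cre-GFP transgene removes floxed exons in retinal progenitor cells. Each genotype had 3 WGBS libraries and 3 libraries of bACE-seq, 12 libraries in all. bACE-seq is a bisulfite method with an added deamination step that reads 5hmC alone. The paper states that both assays used matched DNA of the same extractions, from retinas pooled across animals. The lists hold 1 mean level per genotype, so neither a spread between replicates nor the read depth behind a level could be given for any value below. A whole retina mixes many cell types, and includes cells that do not derive from retinal progenitors, so a change within cells and a change in the mixture cannot be told apart.

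The TET enzymes oxidise 5mC to 5hmC and further, which leads to active DNA demethylation. CpGs are rare in most of the mammalian genome, where they are largely methylated, and dense in CpG islands, which often lie at promoters and are largely unmethylated. Promoter islands of developmental regulators, the imprinting control regions that are methylated on the allele of a single parent, and islands within coding exons are well known classes of CpG-dense DNA.

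The regions were short, with a median of 9 CpGs and 111 bp, and together held 61124 CpGs over 769189 bp, or 0.3% of the 20383623 autosomal CpGs of the reference. A few of them are printed to show what such DNA looks like where the results below turn on it, each as the 300 bases around the midpoint of the region on the + strand of mm10 with every CpG in capitals. Mn1 had the largest area statistic of the authors (chr5:111419813-111420112, within its first coding exon, 29 CpGs). B3glct combined a low Cre- level with a large difference over its start site (chr5:149678739-149679038, in the first intron, 20 CpGs). Basp1 shows a coding exon full of CpGs (chr15:25364358-25364657, 51 CpGs), and Rims2 a long region upstream of a start site (chr15:39197553-39197852, 51 CpGs). Pax6 represents a retinal transcription factor (chr2:105674709-105675008, upstream of a start site, 19 CpGs) and Cdkn1c an imprinted gene (chr7:143459584-143459883, at the border of an intron and a coding exon, 33 CpGs).
Mn1: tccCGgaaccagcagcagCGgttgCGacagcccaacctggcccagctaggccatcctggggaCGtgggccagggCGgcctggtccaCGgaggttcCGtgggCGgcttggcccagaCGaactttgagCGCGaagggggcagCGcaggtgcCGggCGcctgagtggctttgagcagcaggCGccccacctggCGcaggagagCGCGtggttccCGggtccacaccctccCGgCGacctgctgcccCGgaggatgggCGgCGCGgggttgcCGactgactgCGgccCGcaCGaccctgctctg
B3glct: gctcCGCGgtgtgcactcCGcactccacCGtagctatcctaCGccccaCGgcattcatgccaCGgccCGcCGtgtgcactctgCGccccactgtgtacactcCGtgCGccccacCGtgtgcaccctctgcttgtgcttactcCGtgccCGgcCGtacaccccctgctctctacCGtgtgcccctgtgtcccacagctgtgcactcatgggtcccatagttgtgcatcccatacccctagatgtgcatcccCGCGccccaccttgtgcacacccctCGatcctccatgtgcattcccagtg
Basp1: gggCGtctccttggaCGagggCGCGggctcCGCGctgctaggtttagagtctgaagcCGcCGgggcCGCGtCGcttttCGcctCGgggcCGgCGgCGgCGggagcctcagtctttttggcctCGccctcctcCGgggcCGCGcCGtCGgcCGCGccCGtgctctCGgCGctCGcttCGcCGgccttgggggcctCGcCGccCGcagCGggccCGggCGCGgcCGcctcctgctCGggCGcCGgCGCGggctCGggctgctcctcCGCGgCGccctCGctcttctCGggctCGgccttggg
Rims2: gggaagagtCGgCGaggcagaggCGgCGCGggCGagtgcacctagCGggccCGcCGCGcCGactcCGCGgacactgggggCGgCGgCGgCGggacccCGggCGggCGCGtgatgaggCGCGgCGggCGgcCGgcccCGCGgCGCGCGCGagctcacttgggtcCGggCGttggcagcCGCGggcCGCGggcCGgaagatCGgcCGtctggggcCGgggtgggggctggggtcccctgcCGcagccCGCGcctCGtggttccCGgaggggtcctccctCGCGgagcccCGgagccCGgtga
Pax6: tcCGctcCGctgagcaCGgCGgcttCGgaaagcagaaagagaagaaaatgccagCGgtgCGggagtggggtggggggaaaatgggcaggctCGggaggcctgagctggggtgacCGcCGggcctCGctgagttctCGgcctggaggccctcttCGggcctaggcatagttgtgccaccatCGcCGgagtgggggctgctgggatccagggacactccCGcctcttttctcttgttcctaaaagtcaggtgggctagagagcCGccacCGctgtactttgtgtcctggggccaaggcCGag
Cdkn1c: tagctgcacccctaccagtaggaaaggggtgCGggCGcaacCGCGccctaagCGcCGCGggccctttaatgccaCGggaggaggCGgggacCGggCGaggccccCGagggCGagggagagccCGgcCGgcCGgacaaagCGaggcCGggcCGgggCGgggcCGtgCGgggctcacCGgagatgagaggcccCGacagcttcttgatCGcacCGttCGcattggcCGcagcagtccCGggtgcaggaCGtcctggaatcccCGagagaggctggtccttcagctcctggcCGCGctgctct

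The sequences differed in how their CpGs were spaced. The window of Basp1 and that of Rims2 held 51 CpGs each, often as runs of CG repeated without a gap, whereas that of Pax6 held 19 with longer spaces between them. Across all 3580 regions the median GC content was 63.3% and the median ratio of observed to expected CpGs was 0.820. The same values were 47.3% and 0.351 in the 49443 CpG-poor gains, the autosomal regions with fewer than 5 CpGs per 100 bp that met the same limits on level and direction.

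The CpG-dense gains went from a median level of 11.9% in Cre- to 19.04% in Tet tcKO, with a median rise of 6.67 percentage points, where a rise is the Tet tcKO mean minus the Cre- mean. The 10th and 90th percentiles of the rise lay at 2.22 and 16.2 points, and the full range ran from 1.05 to 72.4 points. With each region weighted by its CpGs, the mean went from 16.01% to 23.7%. The ratio of the levels had a median of 1.52, and 300 regions (8.38%) at least doubled. In 625 regions (17.5%) the Tet tcKO level passed 50%, so most of the CpG-dense gains remained below that level in Tet tcKO. A rise of at least 10 points was seen in 1072 regions and of at least 20 points in 226 (6.31%). The CpG-poor gains started from a median of 37.3% and reached 61.8%, a median rise of 22.4 points, and were longer (median 487 bp). The regions of the same density that began at or above 50% in Cre- (8278 gains) went from a median of 82.1% to 90.5%. Among CpG-dense regions below 50% in Cre-, 270 had a lower level in Tet tcKO, with a median change of -6.20 points from a median of 19.1%, and these are called CpG-dense losses.

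**Figure D1:**
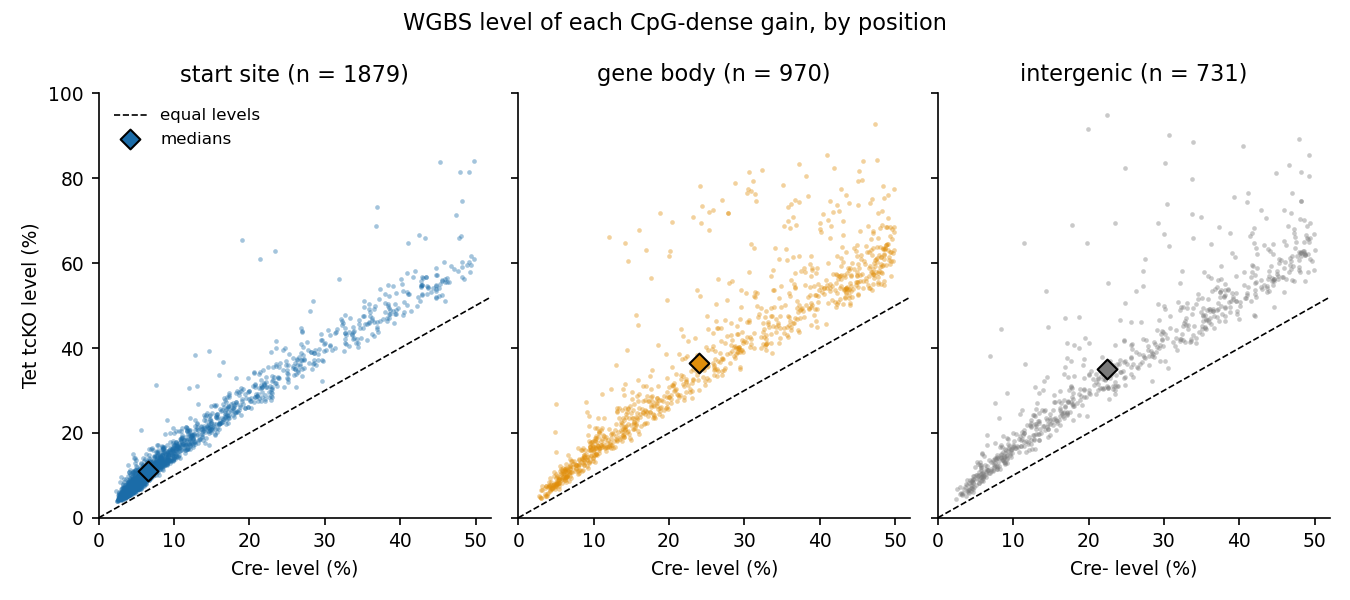
Mean WGBS level of each CpG-dense gain in Cre- (horizontal axis, %) and Tet tcKO (vertical axis, %), split by position at a start site, in a gene body or between genes, with the line of equal levels and a diamond at the medians. The 1879 regions at start sites gather at low levels (medians 6.53% and 10.9%), and those in gene bodies and between genes spread over the whole range below 50%.

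Regions at the limits of the rule varied in their rise on either side. Of the members with exactly 5 CpGs per 100 bp, a region of 9 CpGs (chr2:14129022-14129201) went from 24.1% to 78.3%. A region of 12 CpGs at the same density (chr7:19177977-19178216) had levels of 23.5% and 36.2%, and 44 members lay exactly at that density. A region of 35 CpGs at 4.99 CpGs per 100 bp (chr5:33540075-33540775), just outside, had levels of 10.1% and 19.2%. Near the limit on the Cre- level, a member of 14 CpGs (chr3:51653275-51653488) went from 49.96% to 66.8%, and a region of 28 CpGs that began at 50.1% (chr9:24328260-24328692) reached 68.5%. The smallest rise among members, 1.05 points, belonged to 12 CpGs (chr2:131179943-131180008, 3.45% to 4.50%), and the region nearest to it on the other side of no change fell by 1.299 points (chr2:72979645-72979711, 7.94% to 6.64%).

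Start sites of genes were the most frequent position. The midpoint of 1879 regions (52.5%) lay within 2 kb of the start site of a protein-coding or long noncoding gene, against 10.5% of all autosomal WGBS regions, 16.8% of the CpG-poor gains and 60.7% of the CpG-dense losses. A further 970 (27.1%) lay in gene bodies and 731 (20.4%) between genes, and 368 (10.3%) contained a start site. Of the regions at start sites, 748 lay upstream (median 179 bp before the start) and 1131 downstream (median 452 bp after it). Within 500 bp of a start site lay 1179 of the 1879 regions (62.7%). These started from a median of 5.46% and reached 8.92%, whereas the 2046 CpG-poor gains in the same window went from 28.2% to 45.7%. Further out the CpG-dense gains had somewhat higher levels, with medians of 9.84% and 16.4% for the 185 regions more than 500 bp upstream and of 8.99% and 14.9% for the 515 regions more than 500 bp downstream.

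**Figure D2:**
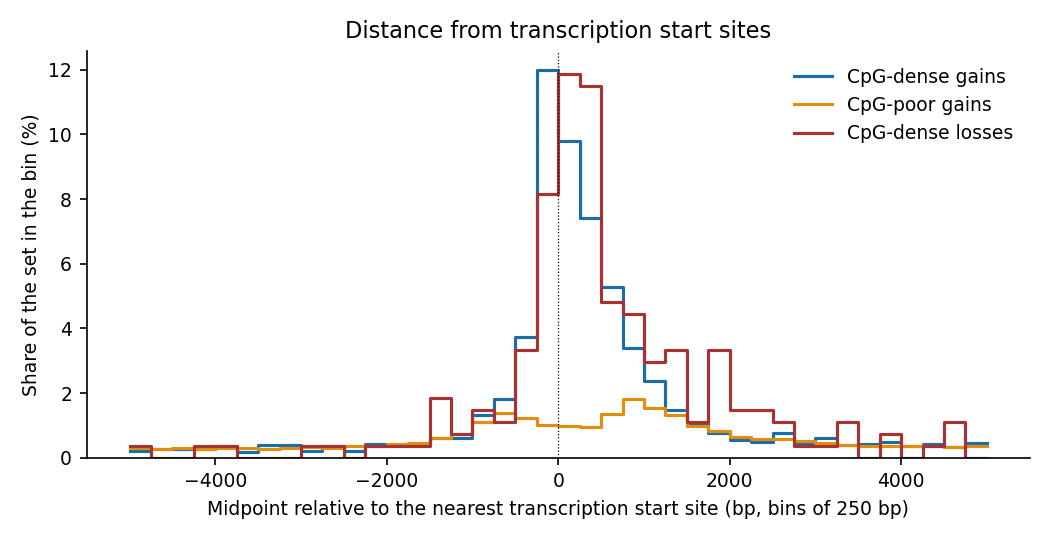
Share of each set of regions (%) by the distance of the midpoint from the nearest transcription start site, in bins of 250 bp, negative upstream, for CpG-dense gains (n = 3580), CpG-poor gains (n = 49443) and CpG-dense losses (n = 270). CpG-dense gains and losses both peak at the start site, and the CpG-poor gains are less frequent there than on either side.

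Position and level went together. Regions at start sites had median levels of 6.53% and 10.9% and a median rise of 4.28 points. Those in gene bodies had levels of 24.0% and 36.6% with a rise of 9.82 points, and those between genes had levels of 22.5% and 35.1% with a rise of 10.3 points. Of the 1618 regions below 10% in Cre-, 77.8% lay at start sites and 94.0% in a CpG-dense stretch of the reference, defined as overlapping 200 bp windows with at least 10 CpGs. The share at start sites was 41.1% for the 926 regions from 10% to 25% and 23.2% for the 1036 regions from 25% to 50%. The rise grew with the starting level, from a median of 3.40 to 8.14 and 12.3 points in these 3 groups, while the ratio of the levels shrank from 1.62 to 1.51 and 1.34. Among the regions that began between 25% and 50%, 595 (57.4%) exceeded 50% in Tet tcKO. In CpG-poor gains of the same starting levels the median rise was 8.77, 17.99 and 23.5 points.

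**Figure D3:**
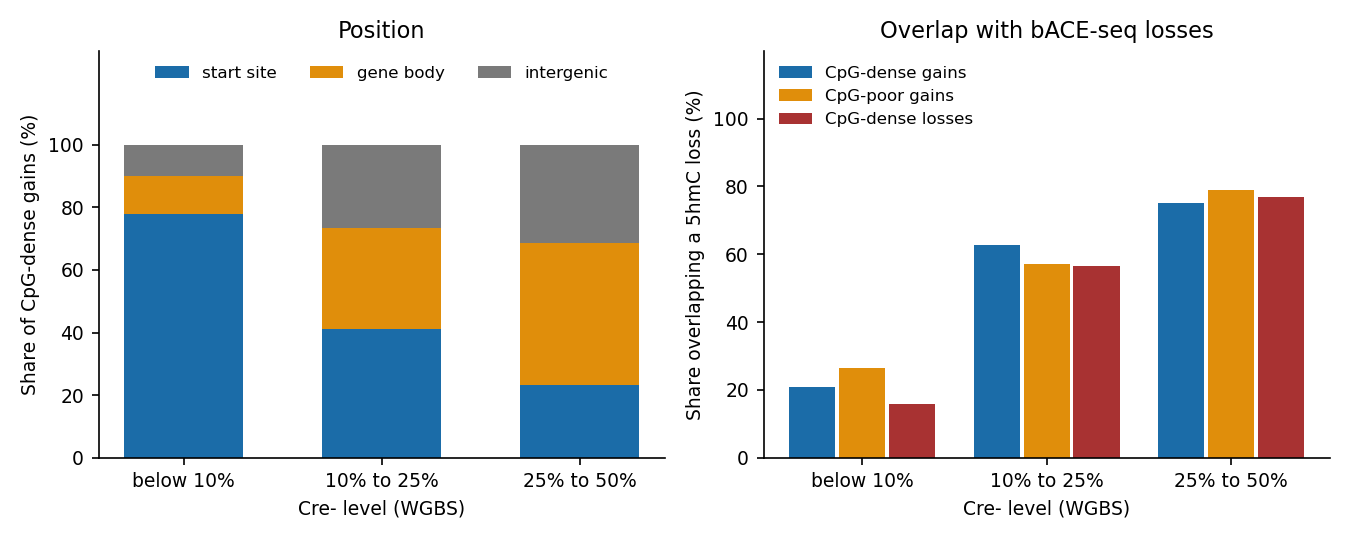
Left, share of CpG-dense gains (%) at start sites, in gene bodies and between genes for 3 groups of Cre- level; right, share (%) of CpG-dense gains, CpG-poor gains and CpG-dense losses in the same groups that overlap a bACE-seq region with less 5hmC in Tet tcKO. The share at start sites drops from 77.8% to 23.2% with rising level, and the share with a 5hmC loss goes from 20.8% to 75.0%.

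The reference genome provides the denominator for these counts. Of 72039 CpG-dense stretches that were not mainly repeats, 2449 (3.4%) held a CpG-dense gain and 235 held a CpG-dense loss. The share increased with length: a gain lay in 1.09% of stretches under 500 bp and in 7.35% of those from 500 bp to under 1000 bp. It lay in 13.2% of those up to 2000 bp and in 169 of 671 stretches (25.2%) of 2000 bp or more. Longer stretches have more bases in which a gain can lie, and the shares were not corrected for this. Among stretches of at least 500 bp the share was 9.59% where they held a start site, 10.8% in gene bodies and 10.9% between genes, so the share at this length was no higher at start sites. Gains covered only part of a stretch, with a median of 22.2% of its bases. Of 30192 autosomal genes, 2000 (6.62%) had a CpG-dense gain within 2 kb of a start site and 2422 (8.02%) had a gain inside the gene. Of the 15413 genes whose start site lay in a CpG-dense stretch, 1777 (11.5%) had a gain at the start. Protein-coding genes had a gain at the start in 7.94% of cases and long noncoding genes in 3.73%.

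The bACE-seq list, a different assay on matched DNA of the same extractions, was not used by the rule. A region with less 5hmC in Tet tcKO (a 5hmC loss) overlapped 1694 of the 3580 CpG-dense gains (47.3%), against 81.1% of all autosomal WGBS regions, 73.9% of the CpG-poor gains and 57.4% of the CpG-dense losses. The regions compared differ in length, and longer regions have more room to overlap. Over the overlapped gains 5hmC went from a median of 10.2% to 2.52%, and Tet tcKO retinas kept a median of 25.2% of the Cre- level. In the CpG-poor gains these values were 17.2%, 4.19% and 24.4%. Since the bACE-seq regions were themselves selected for differing 5hmC, the share kept describes those regions and not the genome. The paper also reports that a small share of unmodified cytosines failed to convert in bACE-seq. No 5hmC level given here was corrected for this, so the share kept is not an exact measure of remaining 5hmC. Overlap also followed the starting level: 337 of the 1618 regions below 10% (20.8%) overlapped a 5hmC loss, then 62.6% and 75.0% of the regions in the next groups. For CpG-poor gains the same shares were 26.5%, 57.2% and 79.0%. In each group, CpG-dense gains of 10 or more CpGs overlapped a loss less often than CpG-poor gains of like CpG number. With 20 to 49 CpGs the shares were 29.8%, 82.1% and 87.5%, against 59.0%, 87.4% and 98.5%. With 9 or fewer CpGs they were 16.1%, 46.3% and 71.5%, against 16.7%, 40.7% and 66.6%. At the same number of CpGs, the CpG-poor regions are longer. The group below 10% held 1618 of 3580 CpG-dense gains but 1230 of 49443 CpG-poor gains. No bACE-seq region overlapped 1884 gains (52.6%), whose median WGBS levels were 5.98% and 10.3%; 549 had none within 1 kb.

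In 1327 gains (37.1%) the bACE-seq regions covered at least 50% of the bases, which allowed both assays to be set side by side. Here the median WGBS level went from 26.3% to 38.0% while the median 5hmC level went from 10.6% to 2.63%. In Cre-, the 5hmC level was a median of 40.1% of the WGBS level. Each 5hmC level is the mean of a whole bACE-seq region, which can reach beyond the gain, so the levels compared are not over the same CpGs. Subtracting 5hmC from the WGBS level, as a rough approximation of 5mC with the same limit, gave a median of 14.3% in Cre- and 35.4% in Tet tcKO. The median rise of this difference was 17.7 points, while the 5hmC level fell by a median of 7.83 points. For the regions below 10% in Cre- that were covered to this extent, the median 5hmC level was 5.08%, the median WGBS level was 7.88% and the median of the share of each region was 64.9%. For the 92 CpG-poor gains of that level covered to this extent the median share was 132%, more than the whole. Neither the share nor the difference is therefore an exact split of the WGBS level. Across the 1327 CpG-dense gains the rise in WGBS and the fall in 5hmC correlated with Spearman's rho of 0.576, and within the 3 groups of Cre- level rho was 0.245 (n = 192), 0.334 (n = 440) and 0.480 (n = 695). For the CpG-poor gains rho was 0.432 (n = 24353). Regions of the same libraries are not independent, both measures depend on the Cre- level, and no test was made.

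Size separated the regions further. The 1809 regions with 9 or fewer CpGs had median levels of 17.8% and 28.4%, and those with 10 to 19 CpGs (n = 867) of 6.96% and 11.6%. The 677 regions with 20 to 49 CpGs had levels of 9.90% and 16.2%, and the 227 with 50 or more CpGs had levels of 11.6% and 20.6%. Of the largest class, 54.6% lay in coding sequence and 74.4% overlapped a 5hmC loss, against 8.79% and 45.5% of the smallest.

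Coding exons held 634 of the CpG-dense gains (17.7%), against 2.04% of the CpG-poor gains. The share was also high in the other CpG-dense sets, at 20.0% of the CpG-dense losses and 15.2% of the CpG-dense gains that began at or above 50%. The first coding exon of a gene was hit by 203 of them (32.02%), an internal exon by 223 (35.2%), the last by 110 (17.4%) and the only coding exon of a gene by 98 (15.5%). In first coding exons the median levels were 8.16% and 12.5%, and 47.8% overlapped a 5hmC loss. In internal exons they were 20.9% and 30.3%, and 73.5% overlapped one. Last coding exons had levels of 15.4% and 23.1% with the highest overlap, 81.8%, and only coding exons had 11.0% and 17.1% with 70.4%. Exons of at least 1 kb held 148 of the 634 (23.3%), against 116 of 1008 CpG-poor gains in coding exons (11.5%).

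Most of the regions with the largest area statistic had their midpoint in a coding exon. The statistic sums over CpGs and so favours large regions, which lay in coding sequence most often. A region of 206 CpGs in the first coding exon of Mn1 (chr5:111418393-111421533), which encodes a transcriptional co-regulator, went from 27.8% to 51.3%. Together 3 bACE-seq regions covered 82.5% of it, with 5hmC of 14.1% in Cre- and 4.56% in Tet tcKO. A smaller region just upstream of the Mn1 start remained low (3.03% to 4.65%), while regions behind the exon lay far higher (68.9% to 84.7% for the nearest). The region at B3glct (chr5:149677813-149679966, 146 CpGs), a glucosyltransferase gene, contained the start site and went from 7.63% to 31.2%, a ratio of 4.09. A 5hmC loss reached over only 13.9% of its bases, at the downstream end.

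Several of these regions overlapped a long coding exon. A region inside the only coding exon of Fignl2, a gene of the fidgetin family of ATPases, held 181 CpGs that went from 41.8% to 56.7% (chr15:101053005-101054255), with 5hmC of 16.9% in Cre- and 4.35% in Tet tcKO. Basp1, which encodes a membrane-associated protein of growing axons, had a region of 107 CpGs that spanned its only coding exon and went from 9.37% to 24.0% (chr15:25364007-25365010). Its 5hmC level of 9.77% in Cre- was slightly above its WGBS level, and was 2.65% in Tet tcKO. At Srcin1, an inhibitor of SRC kinase, 101 CpGs over an internal coding exon went from 22.5% to 41.6% (chr11:97534277-97535494). The bACE-seq regions covered every base of these 3 WGBS regions.

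The other long regions differed in the size of the rise. A region spanning the last coding exon of Foxo6, a forkhead transcription factor, held 168 CpGs (chr4:120267679-120269250, 17.4% to 27.6%). The region over that of Fam171a2 held 179 CpGs (chr11:102437205-102438964, 10.7% to 20.5%). A region of 195 CpGs and 3331 bp at Isl2, a LIM homeobox gene of ganglion cells, went from 11.4% to 23.6% (chr9:55543824-55547154). Its midpoint lay in the last coding exon, which has only 114 bp. The region over an internal coding exon of Tnxb, which encodes the matrix protein tenascin-X, held 182 CpGs (chr17:34670887-34673015, 19.4% to 29.2%). The gene 2700081O15Rik held 158 CpGs that went from 14.5% to 39.6% (chr19:7421915-7424389), the largest rise, 25.2 points, of the 10 regions ranked by area statistic.

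**Figure D4:**
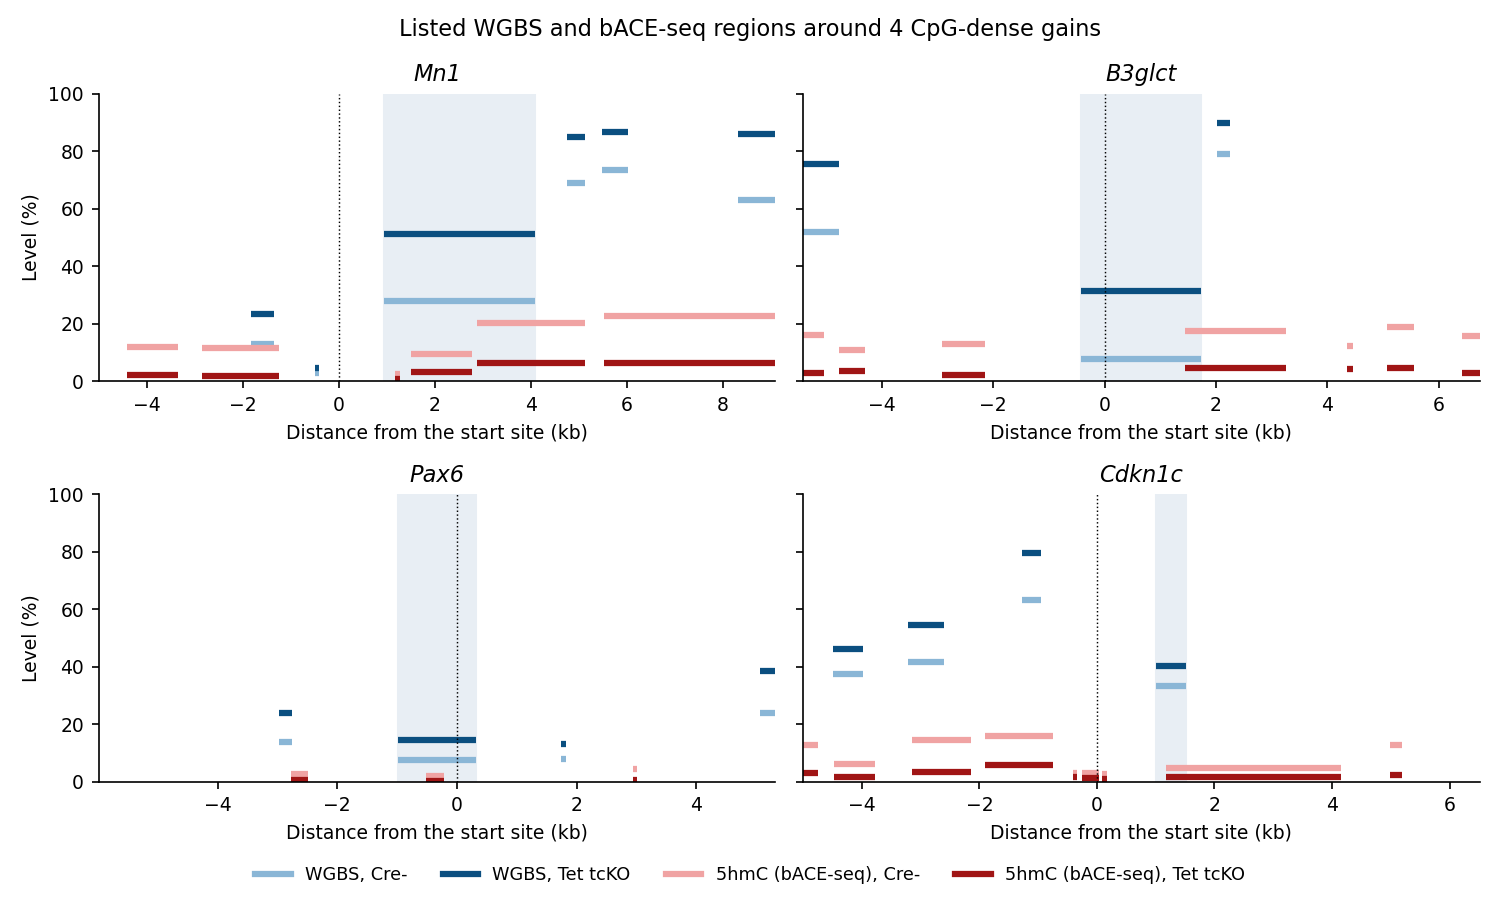
WGBS levels (blue) and 5hmC levels by bACE-seq (red), in %, of the listed regions around the start sites of Mn1, B3glct, Pax6 and Cdkn1c, plotted against the distance from the start (kb, in the direction of transcription); pale bars are Cre-, dark bars Tet tcKO, and the shaded span is the CpG-dense gain. In each panel the dark blue bar lies above the pale blue one and the dark red bar below the pale red one, and the WGBS levels inside the shaded span are lower than those of most regions around it.

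Of the 5 largest rises among regions with at least 20 CpGs, 4 were in regions masked as repeats over more than 50% of their bases. A region of 32 CpGs between genes (chr2:161511590-161512112) went from 23.5% to 69.5%, with 88.0% of its bases masked and a median of 118 copies of its 32-base words in the genome. Another of 33 CpGs (chr4:89875838-89876348) went from 24.8% to 50.6% and was masked throughout, with a median of 98 copies. In unique sequence, 25 CpGs in the first coding exon of Srrm2, a splicing factor of nuclear speckles, went from 31.5% to 74.8% (chr17:23806919-23807173), with 5hmC of 21.7% and 7.55%. The remaining pair overlapped the rare regions with more 5hmC in Tet tcKO. At 20 CpGs between genes (chr9:86731452-86731815) WGBS went from 39.2% to 75.6% and 5hmC from 7.06% to 15.2%. At 35 CpGs in the noncoding gene Gm26561 (chr17:70957497-70958121) WGBS went from 19.8% to 51.3% and 5hmC from 4.67% to 10.5%. A 5hmC gain overlapped 3 of all 3580 regions, and the last of them lay over the start site of Purb (chr11:6475913-6475983, 14 CpGs), which encodes a single-stranded DNA-binding protein, at 6.12% and 7.87% in WGBS and 0.912% and 2.13% in 5hmC.

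The lowest Cre- levels among regions with at least 20 CpGs lay below 3%, and the Tet tcKO levels of these regions did not pass 6%. Such low levels were not corrected here for cytosines left unconverted by bisulfite, so differences this small are uncertain. At Wnt5b, which encodes a secreted signalling ligand, 24 CpGs had levels of 2.51% and 4.30% (chr6:119479160-119479307, near the start of Fbxl14). At Gpr27, an orphan receptor, 39 CpGs had 2.62% and 4.09% (chr6:99693104-99693342), and at Gxylt1, a xylosyltransferase, 25 CpGs had 2.74% and 4.82% (chr15:93274826-93275003). The gene Tub, whose product carries membrane proteins to the cilia of photoreceptors, held 29 CpGs with 2.79% and 5.12% (chr7:108951047-108951334). The POU transcription factor gene Pou3f1 held 24 CpGs with 2.80% and 4.33% (chr4:124658125-124658267). Of these 5 regions, that of Gxylt1 overlapped a bACE-seq region (1.29% and 0.236%) and the other four overlapped none.

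Across the 1327 regions covered to at least 50%, the Cre- levels of 5hmC and WGBS correlated with Spearman's rho of 0.509, and with rho from 0.197 to 0.261 within the 3 groups of Cre- level, a description over regions of the same libraries. Among regions covered to at least 50% and with at least 20 CpGs, the Cre- 5hmC level was highest at Kbtbd7, an adaptor of ubiquitin ligases (24.8% to 4.46%; chr14:79426833-79427401). Of its 32-base words 94.4% occurred at a second place in the genome, so the values of this region are uncertain. Then followed Miga1, a mitochondrial fusion protein gene (23.5% to 5.99%), the border of C2 and Zbtb12 (23.2% to 5.59%), the orphan receptor gene Gpr62 (22.2% to 6.02%) and Exoc8, a subunit of the exocyst (22.1% to 5.73%). Their WGBS levels spanned 10.04% to 44.7% in Cre- and 17.1% to 57.6% in Tet tcKO. At Miga1, C2 and Gpr62 the 5hmC level of Cre- exceeded the WGBS level of the region, a comparison of means over spans that are not the same.

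Genes were then grouped into 20 lists, chosen with earlier results of these data known and described here by counts beside the 6.62% of all autosomal genes and the 11.5% of genes with a CpG-dense start site. Of the 722 genes of these lists, 126 had a CpG-dense gain within 2 kb of a start site. Imprinted genes had the highest share, 11 of 35. The lists for progenitor and neurogenic factors (7 of 25), bipolar cells and Muller glia (5 of 18 each) and signalling ligands (14 of 57) followed. No gene of the cone (13) or horizontal cell (9) lists had one, but lists this short can hold none at the shares of all genes. Inside the gene, 1 gene of the cone list and 1 of the horizontal cell list had a gain. A CpG-dense start site was present in 35 of 39 Hox genes and 23 of 25 progenitor genes, but in 3 of 17 rod and 3 of 13 cone genes.

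**Figure D5:**
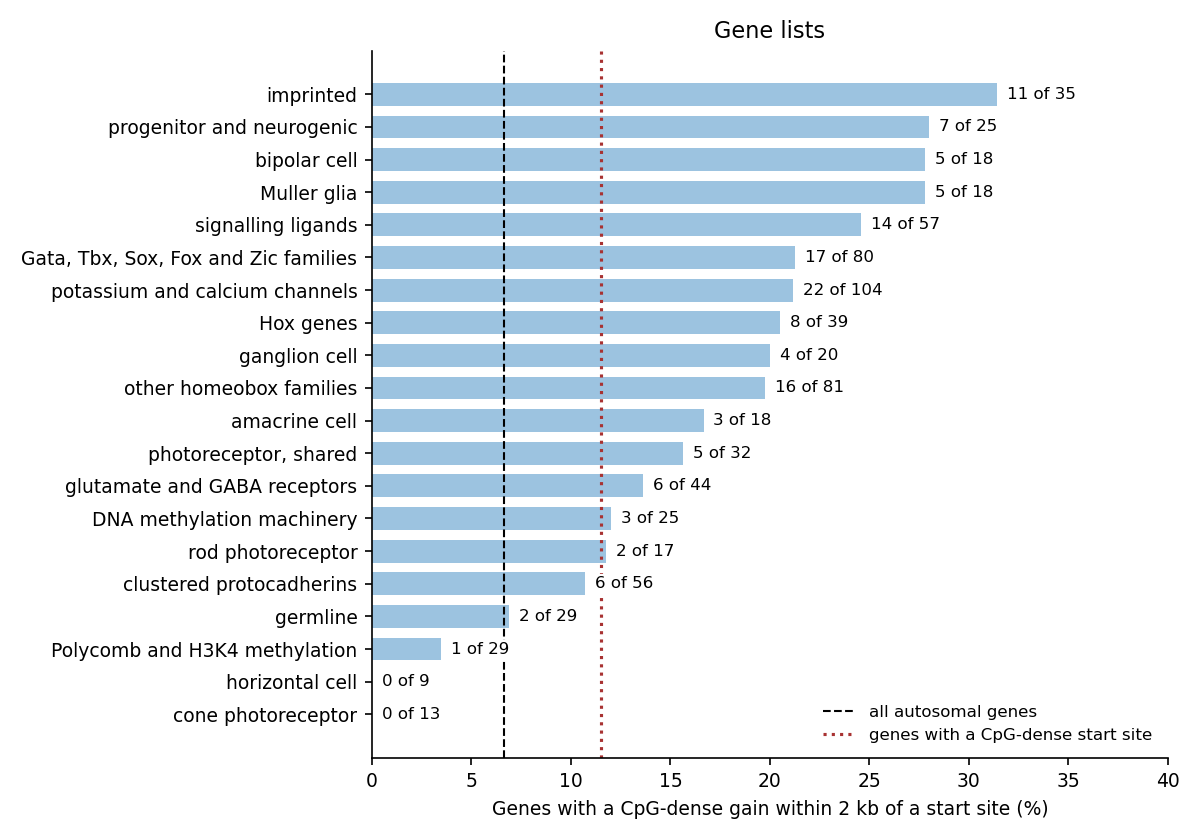
Share of the annotated autosomal genes of each list (%) with a CpG-dense gain within 2 kb of a start site; the counts stand at the bars, and the dashed and dotted lines mark all autosomal genes (6.62%) and genes with a CpG-dense start site (11.5%). Imprinted genes lead with 11 of 35, and the cone and horizontal cell lists have none.

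At each imprinted gene with a gain, the region with the largest area statistic began at an intermediate level, with the exception of Igf2 and Igf2r. The 15 gains at their start sites had a median rise of 6.92 points. The region over the H19 start, a maternally expressed noncoding RNA, went from 42.9% to 52.6% (chr7:142578044-142578239, 10 CpGs). Cdkn1c, a cyclin-dependent kinase inhibitor gene, went from 33.3% to 40.4% over 58 CpGs (chr7:143459482-143459987), with 5hmC of 4.79% and 1.52%. The region shared by Peg10 and Sgce went from 36.6% to 46.2% (chr6:4748187-4748874, 43 CpGs), Grb10, a growth factor receptor adaptor gene, from 34.4% to 40.4% (chr11:12025670-12026721, 118 CpGs), and Gnas, which encodes a G protein subunit, from 37.0% to 44.4% (chr2:174328354-174329432, 106 CpGs). Inpp5f (38.0% to 48.4%), Nespas (39.2% to 45.9%) and Plagl1 (48.3% to 56.8%) were at like levels. Igf2 (8.59% to 12.7%) and the promoter of Igf2r (3.23% to 5.00%) lay far lower. So did a second region at Grb10 (4.18% to 5.84%) and those of 22 and 18 CpGs nearest to a start site of Gnas (5.64% to 8.73% and 3.70% to 5.85%). The alleles were not separated here.

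Of the photoreceptor lists, 2 of 17 rod genes, 5 of 32 genes shared by rods and cones and none of 13 cone genes had a CpG-dense gain at the start. Of the rod genes, Gnb1, the beta subunit of transducin, had 22 CpGs upstream of its start (chr4:155491014-155491294, 5.26% to 9.24%). Rdh8, a retinol dehydrogenase of outer segments, had 6 CpGs over its first coding exon that went from 21.3% to 60.9% (chr9:20818519-20818597), the largest rise among the regions named for the lists. Of the genes shared by rods and cones, Rims2, which encodes a protein of the synaptic active zone, had a region of 124 CpGs upstream of its start at 4.21% and 7.81% (chr15:39197304-39198102). Otx2, the transcription factor at the head of the photoreceptor programme, had 10 CpGs at 4.20% and 7.87% (chr14:48668916-48669001), over the start of its antisense gene Otx2os1. Gucy2e, a guanylate cyclase gene, had 9 CpGs at 7.08% and 11.1% (chr11:69235936-69236087), and Syt1, the calcium sensor of synaptic vesicles, had 7 CpGs at 4.55% and 8.80%. The region assigned to Rom1 lay closer to the start of Eml3 (4.57% to 6.88%). None of these 7 regions overlapped a bACE-seq region.

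In the lists of inner retinal cells, most regions were low islands. Pax6, a master regulator of eye development that marks amacrine cells at this age, had 72 CpGs over a start site that went from 7.61% to 14.6% (chr2:105674204-105675514), with 5hmC of 2.00% and 0.189% over 22.0% of the bases. The bipolar list held Vsx1 (3.78% to 7.15%), Isl1 (2.94% to 4.50%) and Irx5 (51 CpGs, 4.66% to 9.50%), which are homeobox genes. It also held Grm6, the glutamate receptor of ON bipolar cells (28.2% to 39.2%), and Scgn, a calcium-binding protein gene, where 4 CpGs went from 36.9% to 73.2%. Of the glial genes, Kcnj10, the potassium channel of Muller glia, had 20 CpGs over its start at 5.65% and 10.9%, and Sox9 (4.09% to 7.01%), Sox8 (9.07% to 13.1%), Nfia (5.58% to 8.06%) and Nfix (13.2% to 17.7%) had smaller differences. Ganglion cell genes with a gain were Rbpms2 (21.6% to 27.6%), Pou4f2 (3.35% to 5.99%), Isl2 (8.99% to 13.7%) and Irx3 (3.50% to 5.77%). Amacrine genes besides Pax6 were Tfap2a (3.43% to 5.57%, in a repeated sequence) and Chat (4.03% to 5.78%).

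Gains at developmental regulators had small differences, as did low gains at start sites in general. All 1258 gains at start sites that began below 10% in Cre- had a median rise of 3.09 points. The median rise was 2.39 points for the progenitor and neurogenic list, which included Sox2 (4.46% to 6.05%) and Neurog2 (3.06% to 4.76%), both transcription factors of neural progenitors. It was 2.27 points for 8 of 39 Hox genes, 3.48 points for 16 of 81 other homeobox genes and 2.95 points for 17 of 80 genes of the Gata, Tbx, Sox, Fox and Zic families. In the last list Zic4 had 55 CpGs over a start site that went from 15.3% to 26.6% (chr9:91378539-91379559), with 5hmC of 6.28% and 0.933%, and Tbx1 had 44 CpGs that went from 29.7% to 42.0% (chr16:18588654-18589303). For signalling ligands the median rise was 4.66 points, with Fgf8 (47 CpGs, 7.72% to 14.7%) and Bmp4 (12.6% to 19.4%) as examples.

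Neuronal membrane proteins formed the remaining lists. Of 44 glutamate and GABA receptor genes, 6 had a gain. The region over the start of Gabra5, a GABA receptor subunit, was the largest of them (chr7:57508359-57511084, 166 CpGs, 11.0% to 18.995%). Of 104 potassium and calcium channel genes, 22 had a gain, with a median rise of 3.38 points and examples at Kcnc1 (57 CpGs, 12.1% to 16.9%) and Kcnn1 (32 CpGs, 10.02% to 20.1%). Clustered protocadherins, adhesion proteins expressed in combinations by single neurons, had a gain at 6 of 56 genes, all of the gamma cluster, with starting levels from 18.98% at Pcdhgb7 to 35.5% at Pcdhga12 and a median rise of 8.06 points. Genes of the DNA methylation machinery had a gain in 3 of 25 cases (Dnmt3a, Uhrf2 and Cxxc5), Polycomb and H3K4 methylation genes in 1 of 29 (Suz12, 5.98% to 8.72%) and germline genes in 2 of 29 (Dazl and Tdrkh). Dnmt3a, a de novo DNA methyltransferase, had levels of 6.47% and 9.27% over 32 CpGs. Of the genes named above, Nfix held 9 gains within the gene, and Gnas held 6.

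CpG-dense gains often lay beside other gains. Another gain lay within 1 kb of 1675 of them (46.8%), against 31.2% of the CpG-poor gains, and a loss within 1 kb of 25. The nearest gain belonged to the CpG-poor gains, a set with the same limit on the Cre- level, in 742 cases. These neighbours had a median rise of 13.9 points (28.2% to 43.9%), against 5.62 points in the CpG-dense gains beside them, and the neighbour's rise was the larger in 674 pairs (90.8%). In a further 408 cases the nearest gain lay outside the sets described here, with a median of 2.29 CpGs per 100 bp. The neighbours in those cases began higher, at a median of 65.0% in Cre-, and reached 80.5%. Their rise was the larger in 304 pairs (74.5%). At 1335 CpG-dense gains (37.3%) a bACE-seq region lay within 1 kb without overlapping.

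Along the genome, the number of CpG-dense gains per 10000 CpGs was 1.76 overall and ranged from 1.17 on chromosome 3 (139 regions) to 2.97 on chromosome 11 (346 regions). The bin of 5 Mb with the most held 49 (chr10:80000001-85000000). A cluster on chromosome 12 (chr12:19044382-24975184) held 43 regions with median levels of 17.3% and 30.0%. In 32 of these at least 50% of the 32-base words occurred elsewhere in the genome, and 38 overlapped no bACE-seq region, and whether reads were assigned to the right copy was not tested. This cluster held 14 of the 58 regions with 50 or more CpGs and no bACE-seq region. In all, 225 of the 3580 regions were repeated to this extent, and 28.9% of them overlapped a 5hmC loss, against 48.6% of the other 3355. On the X chromosome, which the rule left out, 194 CpG-dense regions below 50% were higher in Tet tcKO and 110 were lower.

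Short sequence motifs were counted on both strands of 300 bp around each midpoint, as a description of base composition. The GC box GGGCGG, bound by Sp and KLF factors, was present in 46.9% of the CpG-dense gains, in 30.1% of the CpG-dense stretches without a WGBS region and in 36.0% of RefSeq promoters of the same length (mm10). The CpG-dense losses had it more often still, in 55.2% of 270. A core of the CTCF motif, AGGGGGC, was present in 13.7%, 7.78% and 10.7%, and in 17.04% of the CpG-dense losses. Motifs of housekeeping promoters were less frequent in the gains than in the CpG-dense stretches without a WGBS region. CCGGAAG of ETS factors was present in 5.59% against 7.11%, GCATGCGC of NRF1 in 1.40% against 2.67% and TGACGTCA of CREB in 0.419% against 1.02%. In RefSeq promoters the NRF1 and CREB motifs were present in 2.70% and 1.83%. The CpG-dense losses had the ETS and NRF1 motifs less often than the gains, in 3.704% and 0.741%. They had the CREB motif in 0.741%, so the low shares were not particular to the gains. The photoreceptor motif TAATCC of CRX and OTX2 was found in 7.77% of CpG-dense gains, 7.06% of promoters and 17.4% of CpG-poor gains. These letters can occur by composition alone, and binding was not measured here.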

How the data were processed

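WGBS and bACE-seq were performed on genomic DNA of 3 Cre- and 3 Tet tcKO samples each. Groups and replicate numbers came from the labels. Reads had been trimmed by the authors, per the submitters' processing notes and the published methods (Trim Galore 0.4.4), aligned to mm10 (Bismark 0.18.2), freed of duplicates (Picard) and converted to CpG levels (MethylDackel 0.6.1). Differing regions were called with DSS, which smooths levels along the genome. The published methods name a p-value threshold for this step and no correction for the number of tests. Levels in the lists are the authors' mean of each group, a fraction from 0 to 1 given here in percent. The deposited area statistic, a score summing the test statistics of a region, ranked the regions to name and served 1 alternative. The deposited difference between the means was not used. That Cre- is the group given first was taken from the names of the lists.

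The 3580 regions, and the gene lists, were chosen with earlier results of these data known. Overlap required 1 bp, and 5hmC levels over a region were weighted by overlapping bases. Both ends of all 190763 autosomal regions fell on a CpG of mm10, and the listed number of CpGs equalled the reference in 99.3%. Genes came from the GENCODE M21 basic annotation. Arr3 and Septin4 of the gene lists were not matched to autosomal genes. Repeated sequence was judged from words of 32 bases taken every 10 bases. Named regions were the 10 with the largest area statistic, the 5 with the most CpGs, the 5 with the largest rise, the lowest Cre- level or the highest Cre- 5hmC (each with at least 20 CpGs), the 5 of at least 20 CpGs without a bACE-seq region, those nearest the thresholds, and the one with the largest statistic at each listed gene. The values at some listed genes are not reported here. The scripts (Python 3.11.15, pandas 2.3.3) were tested on simulated data. Coverage and replicate values were not analysed here, so regions could not be weighted by depth.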

Additional observations from a re-analysis of the deposited data

How the results depend on the processing

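Of 36 alternatives for 7 results, 12 left the value within the limits set for it and 24 moved it outside them. The limits were a fixed ratio for the number of regions and intervals of 95% over regions or stretches for the other results. Such intervals treat regions as independent, which those of the same libraries are not, so they served only as a yardstick. With at least 4 CpGs per 100 bp the number of regions was 5715, the share at start sites 45.2%, the median rise 9.11 points and the share with a 5hmC loss 55.2%, and with at least 6 CpGs per 100 bp the last 3 values were 58.5%, 5.23 points and 41.5%. Regions of at least 10 CpGs numbered 1771, with 61.3% at start sites, a median rise of 5.25 points and 49.2% with a 5hmC loss. A rise of at least 10 points left 1072 regions, one of at least 20 points 226, and an area statistic that, divided by the CpGs, passed a p of 0.001 (two-sided) left 1527. With Cre- levels below 25% the median rise was 4.80 points. The share at start sites was 44.7% for 1 kb, 61.8% for 5 kb and 10.3% where the region had to contain the start. The share with a 5hmC loss was 37.0% where at least 50% of the region had to be covered and 15.5% for 5hmC changes of at least 10 points. With 50% covered, the Cre- 5hmC level was 10.6%. Stretches of at least 500 bp held a gain in 10.0% of cases, and all stretches, repeats included, in 2.44%. Of the alternatives chosen after seeing the data, a bACE-seq region within 1 kb raised the share with 5hmC loss to 84.7%, and leaving out the regions of repeated sequence kept the number (3355) and the other values within those limits. No paired analysis was possible because the lists hold 1 mean per group, and no replicate could be left out for the same reason. Depth is unknown, so stretches missing from the lists cannot be read as equal between the genotypes.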

Other observations

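Of the 227 CpG-dense gains with 50 or more CpGs, 58 overlapped no bACE-seq region. The 5 of at least 20 CpGs with the largest area statistic among all gains without a bACE-seq region lay in the cluster on chromosome 12 that is rich in repeated sequence. They held between 93 and 121 CpGs. The region chr12:21783744-21784901 went from 14.1% to 32.3%, chr12:19288043-19289356 from 23.7% to 33.6%, and chr12:23009594-23010561, over the start site of 2410018L13Rik, from 9.01% to 23.1%. The region chr12:22905543-22906517 went from 8.08% to 23.4% and chr12:23188866-23190113 from 7.74% to 13.9%. In each of them 62.8% to 72.3% of the 32-base words occurred elsewhere in the genome, with a median of 2 to 6 copies.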
